A study of Mus musculus with 16 samples.

Results

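hsa-miR-134-5p, hsa-miR-494-3p and hsa-miR-539-5p, written below without the species prefix, are 3 mature miRNAs of the imprinted DLK1-DIO3 region on human chromosome band 14q32. They were selected on their differences between doses, which earlier results of these same arrays had shown to run in opposite directions, and were taken by name from the 1205 human miRNAs of an Agilent microarray. Those differences are therefore given as a description, with no test. Each array carried extracellular RNA of HCT116, a cell line from a human colorectal carcinoma, taken from its supernatant 72 h after X-rays at 0, 2, 6 or 10 Gy, with 4 samples per dose and 1 single-colour array per sample. All cultures, the unirradiated 0 Gy ones included, grew in RPMI1640 with 10% fetal bovine serum, and 100 ng of extracellular RNA was labelled with Cy3 for every array. Nothing in the labels gives a cell count, says whether the 4 samples of a dose were separate cultures, or describes a control for RNA from the serum. The organism field of the labels reads mouse, although HCT116 and the miRNA probes used here are human.

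The DLK1-DIO3 region holds paternally expressed protein genes and, on the maternal chromosome, long noncoding RNAs such as MEG3 together with one of the largest miRNA clusters of placental mammals. Most of its miRNAs are abundant in embryo, placenta and brain, and the cluster is often silenced in carcinoma cells. miR-134-5p is best known from rodent neurons, where it limits the growth of dendritic spines through Limk1.

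The human mature sequences were not used here, so the mouse miRNAs of the same names are shown from RefSeq (GRCm38.p6) to let the 3 be told apart by base composition and by seed, bases 2 to 8, which are in capitals.
mmu-miR-134-5p: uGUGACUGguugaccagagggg
mmu-miR-494-3p: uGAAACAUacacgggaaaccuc
mmu-miR-539-5p: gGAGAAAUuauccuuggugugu
All 3 lie on the plus strand of mouse chromosome 12, at chr12:109734145-109734166 for miR-134-5p, chr12:109715367-109715388 for miR-494-3p and chr12:109728136-109728157 for miR-539-5p. Their seeds differ from each other, and none recurs in another of the table's 1679 mouse mature entries. GC content was 59.1% for miR-134-5p, 45.5% for miR-494-3p and 40.9% for miR-539-5p, against a median of 52.2% over the 89 of 283 tested human miRNAs whose names matched a mouse entry. Among the 61 mouse miRNA genes between Dlk1 and Dio3, Mir494 is the 31st, Mir539 the 45th and Mir134 the 48th.

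Levels below are log2 values of the processed spot intensity divided by each array's 75th percentile over 518 probes detected on all 16 arrays, so a level of 0 is that percentile and a step of 1 is a doubling. Values under a floor of -4.60 were raised to it. Tests used limma on the 283 human miRNAs for which some dose had a probe above background on each of its 4 arrays, with Benjamini-Hochberg adjustment and a threshold of 0.05. Arrays detected 242 to 358 human miRNAs, and the unscaled 75th percentile was 286 to 679 intensity units. One slide held all arrays of 0 and 2 Gy and the other all arrays of 6 and 10 Gy, so dose and slide cannot be told apart for 6 or 10 Gy against 0 Gy.

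The labelling spike-in is the mean log2 intensity over the array's probes for 2 control RNAs, which are meant to be added before labelling. Whether they were added to these samples in equal amount was not tested. Nor was it tested whether miRNAs of the samples also bound these probes. It was 9.34, 7.49, 0.92 and 8.50 at 0 Gy (replicates 1 to 4) and 1.86, 6.11, 5.54 and 3.78 at 2 Gy. At 6 Gy it had 3.24, 4.31, 5.20 and 0, the last being the lowest value allowed, and at 10 Gy 5.98, 8.19, 6.78 and 5.23. Replicate 3 of 0 Gy was thus far below the other unirradiated arrays. Of the 2 control RNAs, 2, 2, 0 and 2 were detected at 0 Gy and 0, 1, 1 and 1 at 2 Gy. At 6 Gy 1, 1, 2 and 0 were detected, and at 10 Gy 2, 2, 2 and 1. Where a control was not detected, its part of the value is a reading near background and not a measured amount. The relations to the spike-in given below carry these limits. Replicate 2 of 2 Gy, at 6.11 beside 5.54, did not stand apart by its spike-in. Member differences are also given without these 2 arrays together, a pair named from earlier results of these data. They are the arrays that overlap in miR-494-3p at 2 Gy against 0 Gy, so leaving them out widens that difference and is no independent check.

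On the scaled level, miR-134-5p was higher on every irradiated array than on any unirradiated one. Its level was 1.64, 2.07, 2.13 and 2.14 at 0 Gy, with a mean of 1.99 ± 0.24 (SD, n = 4 at each dose). It was 2.57, 2.34, 2.48 and 2.56 at 2 Gy, a mean of 2.49 ± 0.11. It was 2.33, 2.59, 2.48 and 2.79 at 6 Gy, a mean of 2.55 ± 0.20. At 10 Gy it was 2.57, 2.35, 2.50 and 2.63, a mean of 2.51 ± 0.12. The 3 irradiated groups overlapped each other almost fully, and none of them overlapped the 0 Gy group, whose replicate 1 lay well below the rest. Before scaling every irradiated group overlapped the 0 Gy group. On 1 of its 2 probes the unscaled intensity was 1080, 2490, 2340 and 1790 at 0 Gy. It was 2100 on 2 Gy replicate 3, 1950 on 6 Gy replicate 3 and 1800 on 10 Gy replicate 4. How many of the 283 tested miRNAs separated in this way was not counted.

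The difference of miR-134-5p from 0 Gy was 0.49 ± 0.13 at 2 Gy, 0.55 ± 0.13 at 6 Gy and 0.52 ± 0.13 at 10 Gy (log2, SE), or 1.41-fold, 1.47-fold and 1.44-fold. Between 10 Gy and 6 Gy the difference was -0.03 ± 0.13. Counted from the lowest of the 283 differences, it ranked 267th at 2 Gy, 275th at 6 Gy and 279th at 10 Gy. Without 0 Gy replicate 1 the differences were 0.37, 0.43 and 0.40, and without 0 Gy replicate 3 and 2 Gy replicate 2 together they were 0.59, 0.60 and 0.57. Its 2 probes gave nearly the same values, 0.52 and 0.47 at 2 Gy, 0.56 and 0.54 at 6 Gy, and 0.55 and 0.50 at 10 Gy. It was detected on all 16 arrays, at a mean unscaled intensity of 2580. Whether less or more of an extracellular miRNA reflects the number of releasing cells or the amount released per cell cannot be told apart here, as equal RNA was labelled from every supernatant.

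miR-494-3p was lower at 2 and 6 Gy than at 0 Gy and lay in between at 10 Gy. Its level was 4.18, 3.27, 2.46 and 3.92 at 0 Gy, a mean of 3.46 ± 0.77. It was 1.36, 2.83, 1.86 and 1.60 at 2 Gy, a mean of 1.91 ± 0.64. It was 2.21, 2.26, 1.90 and 0.88 at 6 Gy, a mean of 1.81 ± 0.64. At 10 Gy it was 2.65, 3.03, 3.24 and 1.62, a mean of 2.63 ± 0.72. On the scaled level all 6 Gy arrays were below all 0 Gy arrays. Unscaled, the brighter probe read 3260 on 6 Gy replicate 1 and 3170 on 0 Gy replicate 3. At 2 Gy replicate 2 was above replicate 3 of 0 Gy. At 10 Gy 3 of 4 arrays were above replicate 3 of 0 Gy, and all 4 were below the other 3 unirradiated arrays.

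The difference of miR-494-3p from 0 Gy was -1.55 ± 0.46 at 2 Gy, -1.64 ± 0.46 at 6 Gy and -0.82 ± 0.46 at 10 Gy. The scaled signal at 0 Gy was thus 2.92, 3.13 and 1.77 times that at 2, 6 and 10 Gy. The difference of 10 Gy from 6 Gy was 0.82 ± 0.46, less than 2 of its standard errors. Without 0 Gy replicate 3 and 2 Gy replicate 2 the differences from 0 Gy were -2.18, -1.98 and -1.16. The spread within a dose was 0.69 for miR-494-3p and 0.17 for miR-134-5p (pooled SD), so the larger shift of miR-494-3p also carried the larger error. Counted from the lowest, its difference ranked 17th at 2 Gy, 22nd at 6 Gy and 19th at 10 Gy of 283.

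miR-539-5p was at the edge of detection. Its level was -3.99, -3.97, -4.48 and -4.26 at 0 Gy, a mean of -4.18 ± 0.24. It was -4.42, -4.60, -4.47 and -4.60 at 2 Gy and -4.60, -4.52, -4.53 and -4.42 at 6 Gy. At 10 Gy it was -4.45, -4.60, -4.60 and -4.44, and each irradiated dose averaged -4.52, close to the floor of -4.60. Of 4 arrays per dose it was detected on 4 without irradiation, on 2 after 2 Gy, on 2 after 6 Gy and on 1 after 10 Gy. It therefore entered the fit only through the 0 Gy arrays, the group in which it was higher, and a lower level at the other doses was favoured by that filter. Replicate 3 of 0 Gy lay among the irradiated arrays, and the other 3 unirradiated arrays lay above them all. On 1 of its 3 probes the unscaled intensity ran between 13.7 and 30.5 on the irradiated arrays, against 22.7, 38.6, 24.6 and 21.7 at 0 Gy.

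The difference of miR-539-5p from 0 Gy was -0.35 ± 0.11 at 2 Gy, -0.34 ± 0.11 at 6 Gy and -0.35 ± 0.11 at 10 Gy, and 10 Gy differed from 6 Gy by 0 ± 0.11. Since some irradiated arrays were at the floor, these are differences from a floor and not measured folds. Without 0 Gy replicate 3 and 2 Gy replicate 2 they were -0.42, -0.44 and -0.45. Their size depended on the scaling. With the 75th percentile over all non-control probes they were -0.01, -0.02 and -0.11, and after quantile normalization -0.02, -0.03 and -0.13. With no scaling they were -0.27, -0.11 and -0.32. With a normexp background correction the 10 Gy difference was 0.04, above 0.

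**Figure D1:**
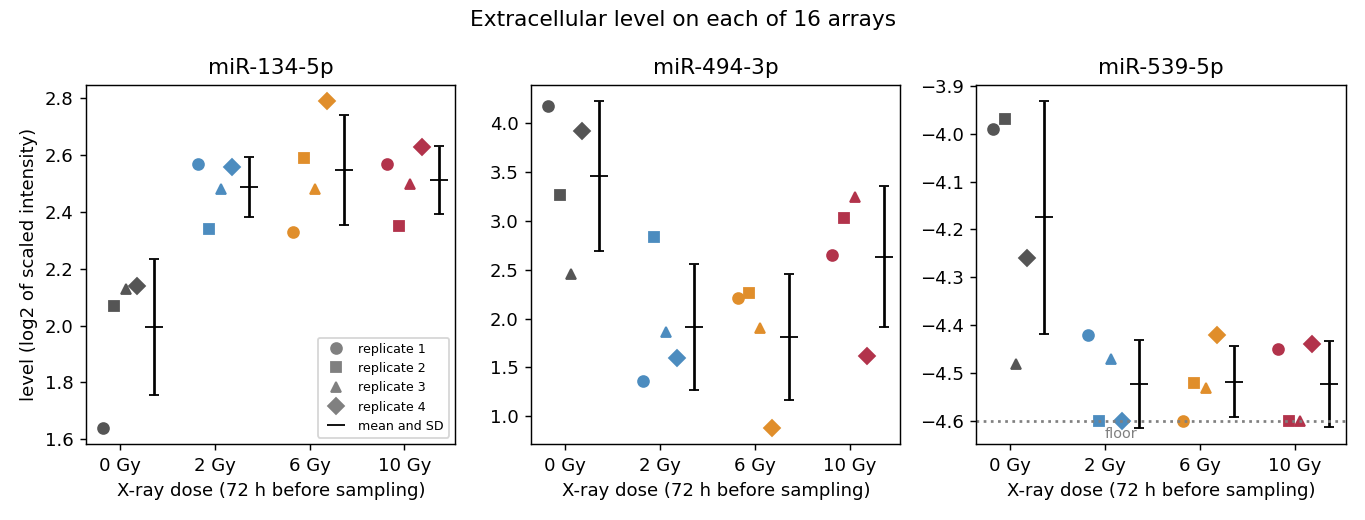
Level (log2 of scaled intensity, y axis) of miR-134-5p, miR-494-3p and miR-539-5p on each array by X-ray dose (x axis), with symbols for the replicate and a bar for the mean and SD of 4 arrays. miR-134-5p is at 2.33 or above on all irradiated arrays and at 2.14 or below at 0 Gy, miR-494-3p is lowest at 2 and 6 Gy, and miR-539-5p sits on or near the dotted floor after irradiation.

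In the fit over all miRNAs the 3 were among the 12.7% of 283 called at 2 Gy against 0 Gy (6.01% higher and 6.71% lower) and among the 19.4% called at 6 Gy against 0 Gy (6.01% higher and 13.4% lower). They were not among the 0.353% called at 10 Gy against 0 Gy. That last outcome depended on the setting, since miR-134-5p was called there in 10 of 28 alternatives, the replicate block among them, and miR-539-5p in 3 of 27. The calls at 2 and 6 Gy depended on it too. miR-134-5p was called in 22 of 29 and 21 of 28 alternatives, and miR-494-3p in 15 of 29 and 17 of 28. miR-539-5p, right at the threshold at 2 Gy, was called in only 6 of 28 and 7 of 27. The members were chosen on these differences, so the calls describe them and test nothing. The 3 comparisons with 0 Gy also share its arrays. At 10 Gy against 6 Gy none of the 283 was called by limma, and 42 had an unadjusted p under 0.05. The median difference over all 283 was 0.03 at 2 Gy, 0.12 at 6 Gy and -0.02 at 10 Gy. The number of miRNAs called was 36 at 2 Gy, 55 at 6 Gy and 1 at 10 Gy, and without 0 Gy replicate 3 it was 121, 143 and 43. Dropping replicate 1 or replicate 4 of 2 Gy left no limma call at 2 Gy (69 with an unadjusted p under 0.05 in both fits). At 6 Gy no call was left on dropping replicate 1, 2 or 4 of the unirradiated arrays or replicate 1 or 4 of 6 Gy (90 to 104 with an unadjusted p under 0.05).

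Subtracting the miR-494-3p level from the miR-134-5p level on the same array removes the scaling between arrays. This within-array difference was -2.55 to -0.33 at 0 Gy, with a mean of -1.47 ± 0.93. It averaged 0.57 ± 0.75 at 2 Gy, 0.73 ± 0.81 at 6 Gy and -0.12 ± 0.81 at 10 Gy. Its zero has no meaning, because the probes of the 2 miRNAs need not respond alike. It was 2.04 ± 0.60 higher at 2 Gy than at 0 Gy, 2.20 ± 0.62 higher at 6 Gy and 1.34 ± 0.62 higher at 10 Gy. The 6 Gy arrays did not overlap the 0 Gy arrays, while 1 array at 2 Gy and 2 arrays at 10 Gy fell within their range. As the pair was chosen for opposite differences between these doses, the shift restates that choice free of scaling and is a description of signals.

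The labelling spike-in moved with miR-494-3p from array to array. After removing the mean of each dose, arrays with more spike-in signal had more miR-494-3p (Pearson r = 0.82, exact permutation within doses, two-sided p = 0.000199, adjusted p = 0.00119 over 6 relations; Spearman rho = 0.77, p = 0.00141, adjusted p = 0.00848; n = 16). On the slide of 0 and 2 Gy r was 0.89 (exact permutation p = 0.00174) and on the slide of 6 and 10 Gy it was 0.77 (p = 0.0365). When the 2 arrays of most extreme spike-in deviation were dropped, 0 Gy replicate 3 and 6 Gy replicate 4, r was 0.72 (exact permutation p = 0.0203). With no scaling between arrays r was 0.57 and its adjusted p was 0.0771 by the same exact permutation test.

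miR-134-5p went the other way, with r = -0.62 against the spike-in, which did not pass (exact permutation p = 0.0778, adjusted p = 0.156; rho = -0.62, p = 0.0352, adjusted p = 0.0705). Within the slides its r was -0.56 and -0.75 (exact permutation p = 0.273 and 0.0868), and without the same 2 arrays it was -0.53 (exact permutation p = 0.0408). It did pass when 0 Gy replicate 1, 3 or 4 was left out, with adjusted p of 0.0403, 0.0166 and 0.0487. miR-539-5p had no stable relation to the spike-in (r = 0.30, exact permutation p = 0.596, adjusted p = 0.894; rho = -0.05, p = 0.895, adjusted p = 0.895), since r was 0.58 on one slide and -0.71 on the other, and -0.39 without those 2 arrays. Over all 283 tested miRNAs the median r with the spike-in was -0.31, and 20 miRNAs had a higher r than miR-494-3p while 79 had a lower r than miR-134-5p.

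The spike-in averaged 6.56 ± 3.84 without irradiation, 4.32 ± 1.92 after 2 Gy, 3.19 ± 2.27 after 6 Gy and 6.55 ± 1.27 after 10 Gy (log2, SD, n = 4 each). From high to low the doses stood in the same order as for miR-494-3p, with 10 Gy about level with 0 Gy. With the spike-in as a covariate, the difference of miR-494-3p from 0 Gy was -1.03 at 2 Gy, -0.87 at 6 Gy and -0.82 at 10 Gy, and 10 Gy differed from 6 Gy by 0.05, against 0.82 without it. The miR-134-5p differences were 0.40, 0.41 and 0.52 in that fit. How far the spike-in signal and the miR-494-3p level share a source was not tested.

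**Figure D2:**
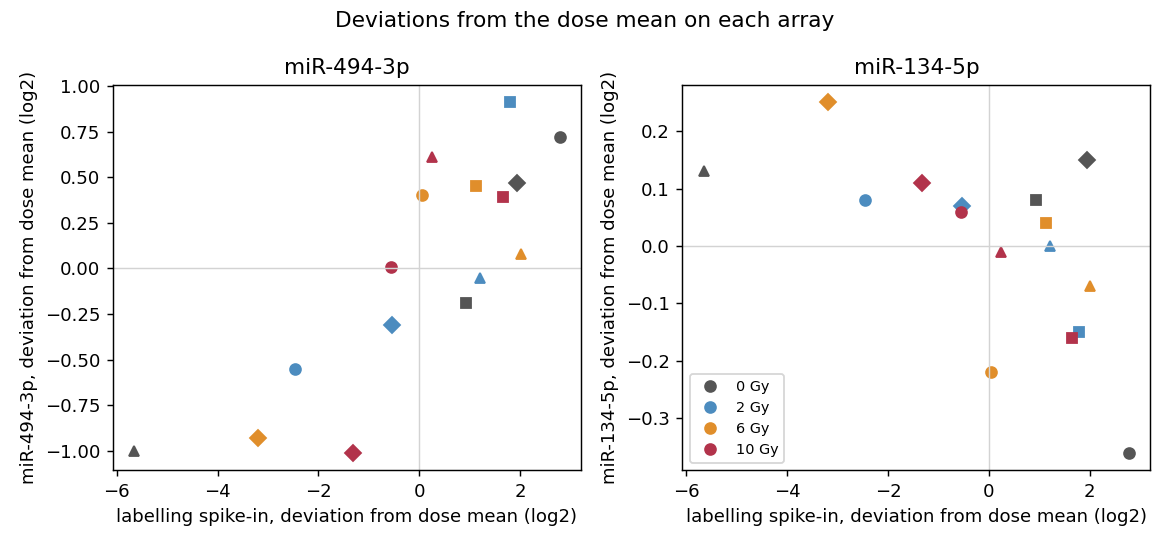
Deviation of miR-494-3p (left) and miR-134-5p (right) from the mean of its dose (log2, y axis) against the deviation of the labelling spike-in (log2, x axis), 1 point per array, coloured by dose. miR-494-3p is higher where the spike-in is higher (r = 0.82), and miR-134-5p tends the other way (r = -0.62).

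The 2 probes of miR-494-3p did not move in step. The brighter one differed from 0 Gy by -1.68 ± 0.64 at 2 Gy, -1.89 ± 0.63 at 6 Gy and -0.73 ± 0.62 at 10 Gy, and the dimmer one by -1.41 ± 0.37, -1.40 ± 0.39 and -0.92 ± 0.44. The log2 ratio of brighter to dimmer probe was 1.18, 1.03, 0.19 and 1.08 at 0 Gy and 0.40, 1.09, 0.51 and 0.42 at 2 Gy. It was 0.12, 0.81, 0.64 and -0.06 at 6 Gy and 1.01, 1.18, 1.10 and 0.97 at 10 Gy. Replicate 3 of 0 Gy and replicate 2 of 2 Gy each stood apart from their dose, the one low and the other high. For miR-134-5p the same ratio of its 2 probes stayed between -0.02 and 0.11 on all 16 arrays.

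This probe ratio followed the spike-in as well, a relation looked at after the values had been seen and outside the 6 adjusted ones. After removing dose means r was 0.88 (exact permutation p = 5.43e-05; rho = 0.83, p = 0.000166; n = 16), with 0.91 on the slide of 0 and 2 Gy (exact permutation p = 0.00174) and 0.83 on the other (p = 0.0174). Without 0 Gy replicate 3 and 6 Gy replicate 4 r was 0.69 (exact permutation p = 0.02). A ratio of probes to 1 miRNA on 1 array does not change with the amount of that miRNA as long as both probes respond in proportion. Whether these probes do so was not tested, and neither was the cause of the relation.

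**Figure D3:**
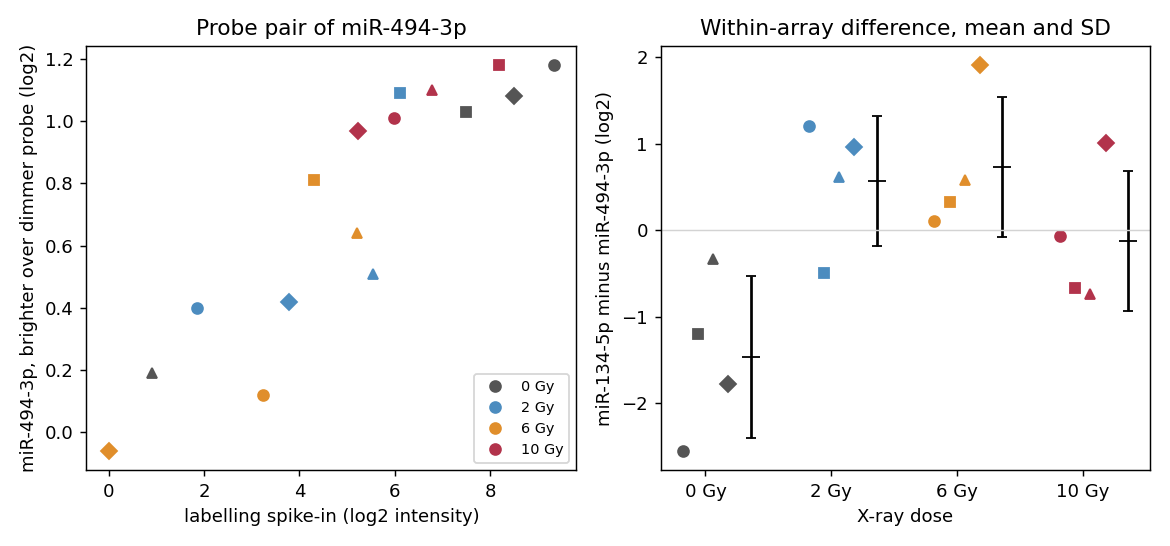
Left, log2 ratio of the brighter to the dimmer miR-494-3p probe (y axis) against the log2 intensity of the labelling spike-in (x axis) on each of 16 arrays, coloured by dose. Right, miR-134-5p minus miR-494-3p level on the same array (log2, y axis) by dose (x axis), with mean and SD; the ratio of probes climbs with the spike-in, and the within-array difference is lowest at 0 Gy.

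The members' own deviations were related for one pair. Arrays of a dose with more miR-494-3p had less miR-134-5p (r = -0.71, exact permutation p = 0.00779, adjusted p = 0.0234; rho = -0.68, p = 0.00636, adjusted p = 0.0191; n = 16), but within the slides r was -0.68 and -0.74 with exact permutation p of 0.118 and 0.0608. Without the 2 arrays of extreme miR-134-5p deviation, 0 Gy replicate 1 and 6 Gy replicate 1, it was -0.71 (exact permutation p = 0.0151). The relation was not seen after quantile normalization (r = 0.05) or with no scaling (r = 0.22), and the cause was not tested. The adjusted p was also above 0.05 without 0 Gy replicate 2 (0.0519), 2 Gy replicate 2 (0.0824), 6 Gy replicate 4 (0.114) or 10 Gy replicate 4 (0.0503), each by the same exact permutation test. miR-539-5p had no detectable relation to miR-134-5p (r = -0.05, adjusted p = 0.939; rho = 0.09, adjusted p = 0.895) or to miR-494-3p (r = -0.05, adjusted p = 0.939; rho = -0.25, adjusted p = 0.627) by exact permutation over all 16 arrays. On the slides taken singly, r of miR-539-5p with miR-134-5p was -0.43 and 0.87, and with miR-494-3p 0.31 and -0.86, opposite in sign each time. Without 0 Gy replicate 1 and 6 Gy replicate 1, the farthest out in miR-134-5p, its r with miR-539-5p was 0.29. Without 0 Gy replicate 3 and 10 Gy replicate 4, the farthest out in miR-494-3p, r of miR-494-3p with miR-539-5p was -0.58. This last relation passed without 0 Gy replicate 3 alone (r = -0.62, adjusted exact permutation p = 0.0346).

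Most of the rest of the imprinted cluster was not detected, on arrays that each detected 242 to 358 of 1205 human miRNAs. Of 70 names of the 14q32 list on the array, 59 were not detected on any array, 11 were detected on at least 1, and 5 on all 16. The 6 that could be tested, beside 283 of all 1205, were the 3 members with miR-370-3p, miR-665 and miR-770-5p. miR-432-5p was detected on 9 arrays, miR-493-3p on 6, miR-382-5p on 3, and miR-485-3p and miR-654-5p on 1 each, and none of these was tested.

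None of the other 3 tested cluster miRNAs passed the test in any of the 4 comparisons. Of all 283, 12.7% were called at 2 Gy, 19.4% at 6 Gy and 0.353% at 10 Gy against 0 Gy, and 0% at 10 against 6 Gy. At such shares, no call among 3 says little about the cluster. The median difference of the 3 was 0.12 at 2 Gy, 0.22 at 6 Gy and -0.01 at 10 Gy, against 0.03, 0.12 and -0.02 over all 283. Their mouse namesakes are shown, where the table held them, since they sit in the same transcribed region with other seeds (capitals).
mmu-miR-370-3p: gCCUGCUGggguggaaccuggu
mmu-miR-770-5p: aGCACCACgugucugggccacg
They lie at chr12:109618305-109618326 and chr12:109563710-109563731 (GRCm38.p6, plus strand), nearer to Dlk1 than the 3 members, and both have a GC content of 68.2%. miR-370-3p was -2.11, -2.23, -2.18 and -1.98 at 2 Gy, against -2.85, -2.46, -2.13 and -2.64 at 0 Gy. Only replicate 3 of 0 Gy lay among the 2 Gy arrays. The difference was 0.39 ± 0.14 at 2 Gy (limma adjusted p = 0.0641), 0.22 ± 0.14 at 6 Gy (adjusted p = 0.223) and 0.24 ± 0.14 at 10 Gy (adjusted p = 0.309), the direction of miR-134-5p in each.

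miR-665 differed from 0 Gy by 0.03 ± 0.14 at 2 Gy, 0.00 ± 0.14 at 6 Gy and -0.01 ± 0.14 at 10 Gy (limma adjusted p = 0.857, 0.978 and 0.981). miR-770-5p, whose gene lies within an intron of MEG3, differed by 0.12 ± 0.23, 0.39 ± 0.23 and -0.02 ± 0.23 (adjusted p = 0.716, 0.195 and 0.976). The groups of both miRNAs overlapped at every dose. The 6 tested cluster miRNAs thus spanned differences from -1.64 to 0.55 at 6 Gy against 0 Gy.

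**Figure D4:**
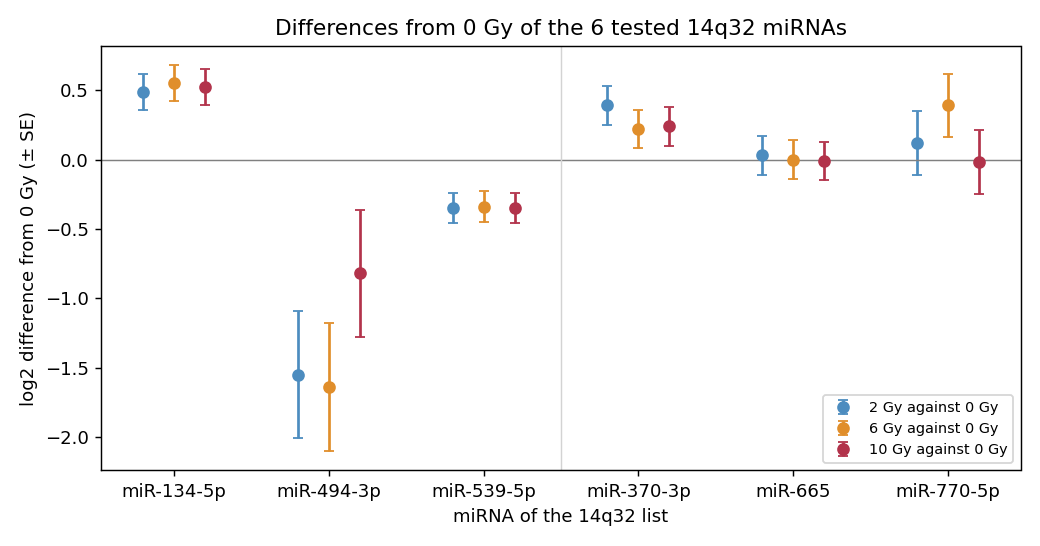
Log2 difference from 0 Gy with its SE (y axis) of the 6 tested 14q32 miRNAs (x axis) at 2, 6 and 10 Gy, 4 arrays per dose. miR-494-3p is lower by 0.82 to 1.64 with SE of 0.46, miR-134-5p is higher by 0.49 to 0.55, and miR-665 lies at 0.

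Across the 16 arrays the miRNAs whose levels were most like miR-134-5p were miR-601 (r = 0.97), miR-1207-5p (0.95), miR-3141 (0.94), miR-1226-5p (0.94) and miR-155-5p (0.92). Over deviations from dose means, miR-601, miR-3141 and miR-1207-5p came first again, each at 0.91. The nearest to miR-494-3p were miR-27a-3p, miR-4286 and miR-93-5p at 0.92 and miR-29a-3p and miR-23a-3p at 0.91, and over deviations miR-93-5p (0.88), miR-27a-3p (0.87), miR-24-3p (0.86), miR-17-5p (0.86) and miR-3617-5p (0.85). The nearest to miR-539-5p were miR-92b-3p (0.86), miR-3650 (0.85), miR-206 (0.83), miR-3647-3p (0.83) and miR-3149 (0.76). These are descriptions over 16 arrays that share scaling, slide and spike-in behaviour, and no cluster miRNA was among them. Most opposite to miR-134-5p over deviations were miR-1260b (r = -0.85), miR-4284 (-0.80) and miR-1290 (-0.78), an abundant extracellular miRNA.

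Marker miRNAs of the cell type and of serum were looked up. Of 10 miRNAs typical of colorectal epithelium 7 were detected on at least 1 array. These were miR-200c-3p and miR-141-3p on 15 each, miR-21-5p and miR-31-5p on 11 each, miR-200b-3p on 8, miR-429 on 6 and miR-200a-3p on 4. The intestinal miRNAs miR-192-5p, miR-194-5p and miR-215-5p were not detected on any array. miR-200c-3p differed from 0 Gy by -2.14 ± 0.85, -2.50 ± 0.85 and -0.74 ± 0.85 at 2, 6 and 10 Gy (limma adjusted p = 0.0972, 0.0514 and 0.613). For miR-21-5p the differences were -2.79 ± 0.66, -2.72 ± 0.66 and -1.80 ± 0.66 (adjusted p = 0.0225, 0.0304 and 0.129). For miR-141-3p they were -0.82, -2.07 and -0.53 (limma adjusted p = 0.424, 0.057 and 0.691), and for miR-31-5p -1.37, -1.69 and -0.90. miR-31-5p was detected on 4, 2, 2 and 3 arrays at 0, 2, 6 and 10 Gy, so it entered the fit only through 0 Gy. A lower level at the other doses was favoured by that filter, and its differences are a description. Each of these 4 epithelial miRNAs was at the floor on some irradiated arrays, and miR-31-5p also on 0 Gy replicate 3. These are therefore partly differences from a floor and not measured folds. Of 7 blood and serum markers 2 were detected, miR-122-5p on 4 arrays and miR-486-5p on 16, and the red cell miRNA miR-451a and the myeloid miRNA miR-223-3p were not. miR-486-5p differed from 0 Gy by 0.15 ± 0.11 at 2 Gy, 0.21 ± 0.11 at 6 Gy and 0.31 ± 0.11 at 10 Gy (limma adjusted p = 0.308, 0.142 and 0.117). Whether bovine serum RNA contributed to the members' signal was not tested.

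Settings other than those reported left the direction of miR-134-5p and miR-494-3p as it was at each dose against 0 Gy. Over the tried settings other than single arrays left out, the miR-134-5p difference ran between 0.36 and 0.88 at 2 Gy, 0.32 and 0.93 at 6 Gy, and 0.28 and 0.72 at 10 Gy. The miR-494-3p difference ran between -2.18 and -1.03 at 2 Gy, -1.98 and -0.87 at 6 Gy, and -1.16 and -0.62 at 10 Gy. For miR-539-5p the same ranges reached -0.01, -0.02 and 0.04.

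**Figure D5:**
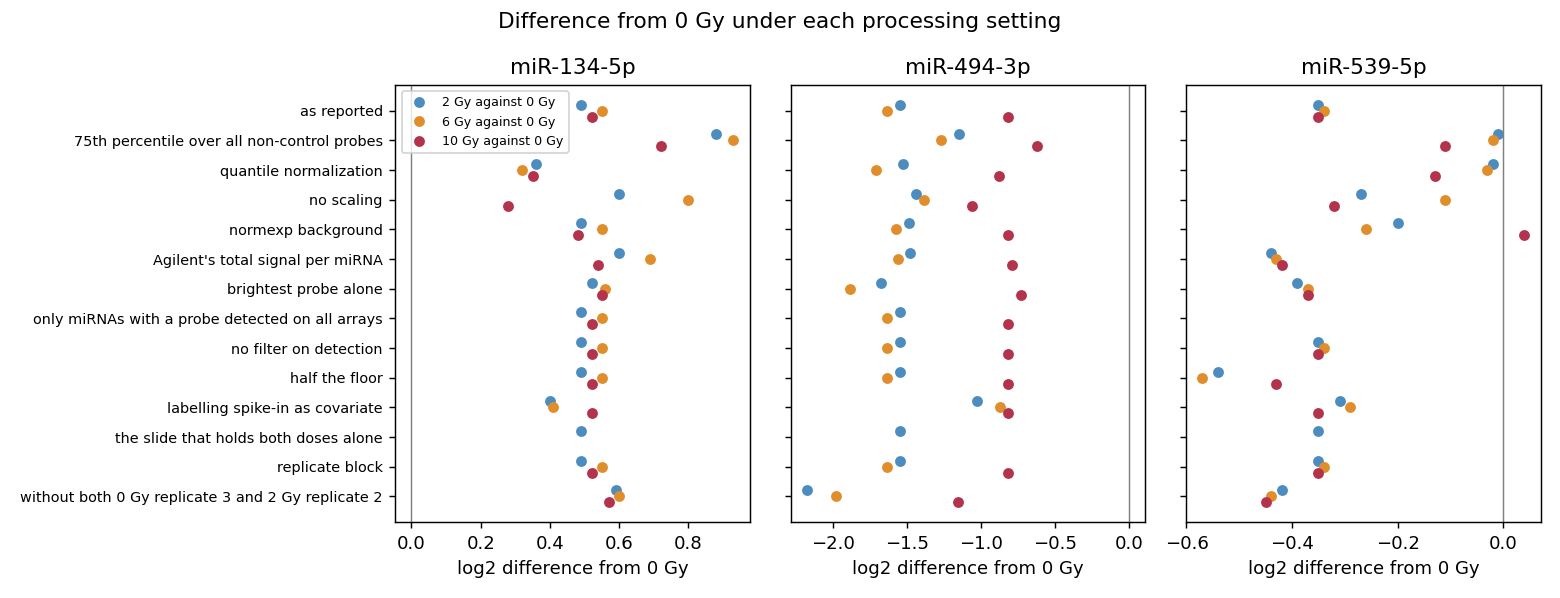
Log2 difference from 0 Gy (x axis) of the 3 miRNAs at 2, 6 and 10 Gy under each processing setting (rows), with the reported one at the top. The points of miR-134-5p stay above 0 and those of miR-494-3p below 0, while those of miR-539-5p approach or pass 0 under other scalings and background correction.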

How the data were processed

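Small RNA from 16 culture supernatants was labelled with Cy3 and hybridised to single-colour Agilent miRNA arrays, per the labels' protocols. The deposited files are, per the file headers, scanner output of Agilent's Feature Extraction 11.5.1.1, and hold the authors' spot intensities, background-subtracted and not scaled between arrays. Control and outlier spots were left out, spots of a probe were averaged, and the processed intensity was divided by each array's 75th percentile over 518 probes detected on all arrays (over 0.5 of spots well above background), floored at 0.0412 (4.2% of tested values) and log2-transformed. Probes of a miRNA were averaged, giving 283 human miRNAs from 592 probes. limma 3.58.1 in R 4.3.3 fitted 1 mean per dose on all 16 arrays, with Benjamini-Hochberg adjustment over 283 miRNAs. Relations between arrays were tested by exact permutation within doses (331776 orders, 576 within a slide), over deviations from dose means. Fits were tested on simulated data.

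The number of arrays limits the precision, and no spot was saturated. p-values measure the spread between these samples, which may be technical, as nothing says they came from separate cultures. Nothing in the labels says whether same-numbered samples of different doses belong together. The main fit did not pair them, and a fit with the replicate number as a block is given below. The members and lists were chosen with earlier results of these data known. Named were the members, tested miRNAs of the 14q32 list, the 5 most like each member and the tested markers. Alternatives covered scaling, background, signal summary, filter, floor, spike-in, slide, replicate block and arrays left out.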

Additional observations from a re-analysis of the deposited data

Results flagged for a closer look

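Of 32 groups of 4 arrays that were looked at with Dixon's test, 4 held an array far from the others, where chance gives about 1 in 20. miR-134-5p at 0 Gy replicate 1 was at 1.64, and its nearest neighbour at 2.07, a gap of 0.86 of the group's range. The log2 ratio of the miR-494-3p probes was 1.09 at 2 Gy replicate 2, with 0.51 next to it, and 0.19 at 0 Gy replicate 3, with 1.03 next to it, both gaps being 0.85 of the range. miR-665 at 2 Gy replicate 2 was at -3.22, with -2.95 next to it, a gap of 0.90 of the range.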

How the results depend on the processing

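Of the members' differences under an alternative 315 moved by less than the spread between replicates and 23 by more, with none reversed among called differences. With the 75th percentile over all non-control probes miR-134-5p differed from 0 Gy by 0.88, 0.93 and 0.72 at 2, 6 and 10 Gy, with -0.21 for 10 against 6 Gy, and miR-539-5p by -0.01, -0.02 and -0.11. After quantile normalization miR-134-5p was at 0.32 at 6 Gy and miR-539-5p at -0.02, -0.03 and -0.13. Unscaled, miR-134-5p was at 0.80 at 6 Gy, 0.28 at 10 Gy and -0.52 for 10 against 6 Gy, and miR-539-5p at -0.11 at 6 Gy and -0.21 for 10 against 6 Gy. With normexp miR-539-5p was at -0.20 at 2 Gy, 0.04 at 10 Gy and 0.30 for 10 against 6 Gy, and with the floor at 0.5 of its value at -0.54 and -0.57 at 2 and 6 Gy. With the spike-in as covariate miR-494-3p was at -0.87 at 6 Gy and 0.05 for 10 against 6 Gy.

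The miRNAs called at 2, 6 and 10 Gy against 0 Gy numbered 36, 55 and 1. They were 129, 177 and 22 with all-probe scaling, 71, 127 and 27 after quantile normalization, 0, 0 and 0 unscaled (limma, 36, 62 and 22 at an unadjusted p under 0.05) and 152, 166 and 70 without 0 Gy replicate 3 and 2 Gy replicate 2. All-probe scaling called 111 higher and 18 lower at 2 Gy, against 17 and 19 as reported. They were 56, 90 and 8 with no filter (1 for 10 against 6 Gy), 38, 3 and 47 with the spike-in as covariate (1 for 10 against 6 Gy), 86 at 6 Gy with Agilent's total signal, 9 at 10 Gy with the brightest probe, and 35 and 7 at 6 and 10 Gy with the strict filter, in which miR-539-5p could not be tested. normexp called 0 at 2 Gy and 0 at 10 Gy (68 and 33 at an unadjusted p under 0.05), and the slide of 0 and 2 Gy alone 0 at 2 Gy (69 at an unadjusted p under 0.05). Leaving out 1 array gave 0 to 121, 0 to 143 and 0 to 43 calls, and 0 for 10 against 6 Gy.

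Same-numbered samples of different doses correlated between -0.76 and 0.87, over 0.1 in 14 of 24 pairs, and 6 of 16 arrays were nearest to their own number. With the replicate number as a block, 68 miRNAs were called at 2 Gy and 7 at 10 Gy, and the members' differences were the same (miR-134-5p 0.49, miR-494-3p -1.55 and miR-539-5p -0.35 at 2 Gy). The block changed 1 member's call, as miR-134-5p (0.52) was called at 10 Gy.

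Leaving out 1 array moved the difference from 0 Gy at 2, 6 and 10 Gy between 0.37 and 0.54, 0.43 and 0.63, and 0.40 and 0.57 for miR-134-5p, between -1.88 and -1.30, -1.98 and -1.33, and -1.16 and -0.49 for miR-494-3p, and between -0.45 and -0.28, -0.44 and -0.27, and -0.45 and -0.28 for miR-539-5p. The side of the threshold, a description for members chosen on these differences, varied: miR-134-5p was called in 22 of 29 alternatives at 2 Gy, 21 of 28 at 6 Gy and 10 of 28 at 10 Gy, miR-494-3p in 15 of 29, 17 of 28 and 0 of 28, and miR-539-5p in 6 of 28, 7 of 27 and 3 of 27.

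The correlation of miR-134-5p with miR-494-3p was 0.05 after quantile normalization and 0.22 unscaled, both above 0, and -0.66 (adjusted p = 0.0553) with the brightest probe and -0.66 (adjusted p = 0.0585) without both arrays, by exact permutation. That of miR-494-3p with the spike-in was 0.57 unscaled (adjusted p = 0.0771, exact permutation). That of miR-134-5p with the spike-in was -0.71 with Agilent's total signal (adjusted p = 0.0388, exact permutation). Leaving out 1 array gave -0.82 to -0.63, 0.78 to 0.86 and -0.74 to -0.52 for these 3 relations, -0.19 to 0.36 for miR-134-5p with miR-539-5p, -0.62 to 0.07 for miR-494-3p with miR-539-5p, -0.50 to 0.45 for miR-539-5p with the spike-in, and 0.79 to 0.91 for the miR-494-3p probe ratio with the spike-in. The cause of these changes was not tested.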
